A study of Coprinopsis cinerea with 7 samples.

Results

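The interior of chromosome 1 of Coprinopsis cinerea comprises the 300 bp windows of the deposited tables that start beyond 20000 bp and end at least 20000 bp before the last chromosome 1 window. It holds 13690 of the 120537 windows, from 20101 to 4127100 on a chromosome whose last window ends at 4147200, or 4.11 Mb. The rule for these windows uses position alone, though it was chosen with earlier results of these data known. Coprinopsis cinerea, the ink cap mushroom, is a laboratory model of basidiomycete development. All groups were DNA of its oidia, the asexual spores, and the labels give no strain, genotype or treatment. The first group, IP, was DNA pulled down with a non-commercial anti-CMS antiserum, in 5 libraries, 3 from biological replicate 1 and 2 from biological replicate 2. The second group, input, was the same kind of DNA without the pull-down, in 2 libraries. Each deposited table has 2 columns per group, with the tags 1_1 and B_1, which no label ties to a biological replicate, so n = 2 columns per group throughout and p-values measure only the spread between columns.

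5-hydroxymethylcytosine is made from 5-methylcytosine by the TET/JBP dioxygenases, which oxidise the methyl group. In CMS-seq, bisulfite turns this oxidised base into cytosine-5-methylenesulfonate (CMS), and the antiserum recovers the fragments that carry CMS. In fungi, cytosine methylation is known mainly from repeats and transposable elements, and this genome is known for a large family of TET/JBP genes that often lie beside transposons. A window higher in IP than in input is a place where the antiserum enriched DNA, at a resolution set by the fragment and not by a single base.

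Summed over all windows, the primary table held 106176723 and 67181684 counts for IP (1_1 first, then B_1) and 36059418 and 36233140 for input. A second table, named for multiple mapping, held 24990768 and 19994333 counts in IP and 28735765 and 27600179 in input. Its IP columns were taken as such because their headers lack the word input, which the other 2 carry. The 2 tables share their tags and may hold the same libraries. Whether 1 read can count in several windows is not stated, so neighbouring windows may share reads. On the interior, window counts of the IP columns differed from each other by 7.98 times the counting error (chi-square per degree of freedom) and those of the inputs by 1.76 times in the primary table. The multi-mapped table gave 1.14 for IP and 0.891 for input. These inputs differed by less than sampling noise there and, counted as 1 sample in that table, left 243 windows higher in place of 546. Levels below are CPM, library-normalised counts scaled by TMM factors. CPM of windows, regions and bins are scaled to the counts of all windows. CPM of genes are scaled to the counts within genes, so they are not on the same scale as region CPM. Tests are edgeR's quasi-likelihood tests fitted on the whole genome with Benjamini-Hochberg adjustment (adjusted p under 0.05).

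Enrichment covered a small part of the chromosome 1 interior. Of 13626 interior windows with at least 10 counts, 660 (4.84%) were higher in IP, where the background over all windows was 8.75%. Lower windows numbered 89 (0.653%), against a background of 0.640%. The higher windows had a median log2 fold change of 0.64 (1.56-fold, quartiles 0.52 and 0.91, median SE 0.12). At least 2-fold differences were found in 143 of these 660 (21.7%), against 20.6% of the higher windows of the whole series. At least 4-fold differences were found in 39 (5.91%, against 7.22%). Taken over all tested windows and not over called ones, the background was 1.80% at 2-fold and 0.632% at 4-fold. In all 660, both IP columns stood above both inputs, as they did in 2752 of the tested interior windows (20.2%; background 25.5%). The median log2 fold change of all tested interior windows was -0.03.

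The other 12 chromosome interiors held 9011 higher windows among 103023 tested (8.75%). Their shares ran between 4.43% on chromosome 5 and 13.1% on chromosome 6, and among the 13 only chromosomes 5 and 8 (4.73%) lay below chromosome 1. In the multi-mapped table the chromosome 1 interior had 546 higher windows of 13690 (3.99%; background 7.00%), again with only chromosomes 5 and 8 below it, and 113 lower windows (0.825%; background 0.816%). The interior also had a smaller share of all window counts in IP, at 10.5% and 10.3% in the IP columns and 11.0% in each input. The means were 10.4 ± 0.113% in IP and 11.0 ± 0.0259% in input (SD, n = 2 each), a difference of -0.629 percentage points. Both IP columns lay below both inputs. The exact two-sided permutation test gave p = 0.333, the smallest it can reach with 2 columns against 2.

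**Figure D1:**
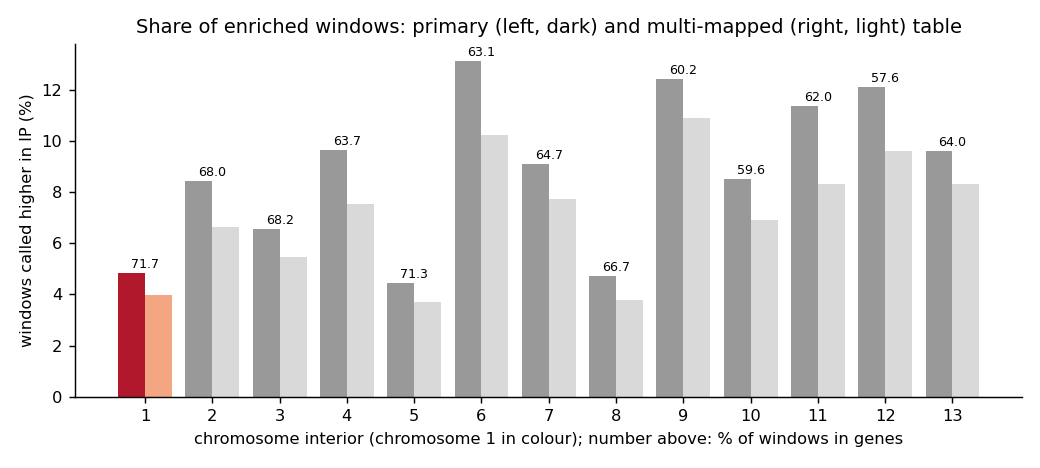
Share of tested windows called higher in IP (y axis, %) in the interior of each of the 13 chromosomes (x axis); dark bars give the primary table, light bars the multi-mapped table, and the number above each pair is the share of windows with their midpoint in a gene. Chromosome 1, in colour, had 4.84% and 3.99%, above only chromosomes 5 and 8 in both tables, and the highest share of windows in genes of the 13.

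At the limit of 20000 bp, 0 of the first 10 interior windows on the left were higher (log2 fold changes -0.25 to 0.49, median 0.08), and 0 of the 10 windows just outside (-0.58 to 0.25, median -0.09). On the right 8 of the last 10 interior windows were higher (0.37 to 0.55, median 0.46), against 2 of the 10 just outside (0.10 to 0.51, median 0.27). The outermost 20 kb of both ends together had 36 higher windows of 126 tested (28.6%). A further 64 interior windows had under 10 counts and were not tested, 9 of them with no count at all, and 36 of the 64 lay within the first 100 kb. Their multi-mapped counts were not low: these 64 had a median input of 18.3 CPM, against 6.97 CPM over all interior windows, and 4 of them were higher in IP.

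Enriched windows lay toward both arms of the chromosome and were sparse between them. From 20101 to 1250100, 355 of 4037 tested windows were higher (8.79%), and from 3300001 to 4127100, 254 of 2756 (9.22%). Between 1250101 and 3300000 only 51 of 6833 were higher (0.746%), so a stretch with 50.1% of the tested windows held 7.73% of the calls. These boundaries were chosen after the calls were seen. The 3 shares in the multi-mapped table were 7.07% for the first stretch, 7.62% for the last and 0.673% for the one between. Lower windows made up 0.718% of the first, 1.02% of the last and 0.468% of the one between. The share of windows with their midpoint in a gene was 61.8% in the first, 61.5% in the last and 81.8% in the middle stretch.

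The middle stretch also held the longest runs without an enriched window. The longest ran over 302100 bp, from 2344801 to 2646900, with 87.4% of its windows in genes, 5 lower windows and 1 window higher in the multi-mapped table. The next covered 247800 bp from 2666701 to 2914500, with 7 lower windows and 0 higher in the multi-mapped table by edgeR. Another ran from 2105101 to 2344500 (239400 bp). In the first stretch, a run without calls extended from 863701 to 1066800 (203100 bp) with 64.7% of its windows in genes.

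Summed into 81 whole bins of 50 kb, the interior had 18 bins higher in IP (background 38.5% of all bins) and 48 lower (background 41.8%). The higher bins had log2 fold changes of 0.06 to 0.62 and the lower bins of -0.13 to -0.05. Scaled by library totals, the median of all bins was -0.14, against -0.04 with TMM, a shift of the size of the lower bins' values. The multi-mapped table had 11 higher bins (background 32.6%), all 11 also higher in the primary table, and 39 lower bins (background 36.9%). Of the 81 bins 32 had no enriched window, while 16 bins with at least 10 held 505 of the 660 calls (76.5%).

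The 3 highest bins lay in the last 0.5 Mb of the interior. The bin at 3650001 to 3700000 held 1969 and 2198 CPM in the IP columns and 1358 and 1357 CPM in the inputs, a log2 fold change of 0.62 ± 0.06 (SE). The next bin, 3700001 to 3750000, held 1618 and 1889 CPM in IP and 1177 and 1187 CPM in input (0.57 ± 0.06). Each had only 9 enriched windows, and in the multi-mapped table their log2 fold changes were 0.11 and 0.09. The bin at 3850001 to 3900000 held 2895 and 3140 CPM in IP and 2101 and 2027 CPM in input (0.55 ± 0.07; 0.30 in the multi-mapped table). There the enrichment was spread over 68 of 166 windows (41.0%), the largest share of the 81 bins.

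Other bins combined moderate folds with many windows. At 1150001 to 1200000, where 32.5% of windows lay in genes, the IP columns held 1185 and 1258 CPM and the inputs 992 and 972 CPM (log2 0.32 ± 0.03), with 50 of 157 windows higher (31.8%). At 500001 to 550000 the IP columns held 1680 and 1760 CPM and the inputs 1401 and 1379 CPM (0.31 ± 0.04), with 54 of 164 higher (32.9%). Their multi-mapped log2 fold changes were 0.31 and 0.30. The lowest bins were 3600001 to 3650000 (-0.13 ± 0.02), 1300001 to 1350000 (-0.12 ± 0.04) and 4050001 to 4100000 (-0.11 ± 0.03). The last was not called lower in the multi-mapped table (edgeR adjusted p = 0.131), by the DESeq2 Wald test (0.108) or without input 1_1 (0.0695). The call at 1300001 to 1350000 ended with DESeq2's size factors (edgeR adjusted p = 0.0677), with the DESeq2 Wald test (0.0868) and without input 1_1 (0.139).

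**Figure D2:**
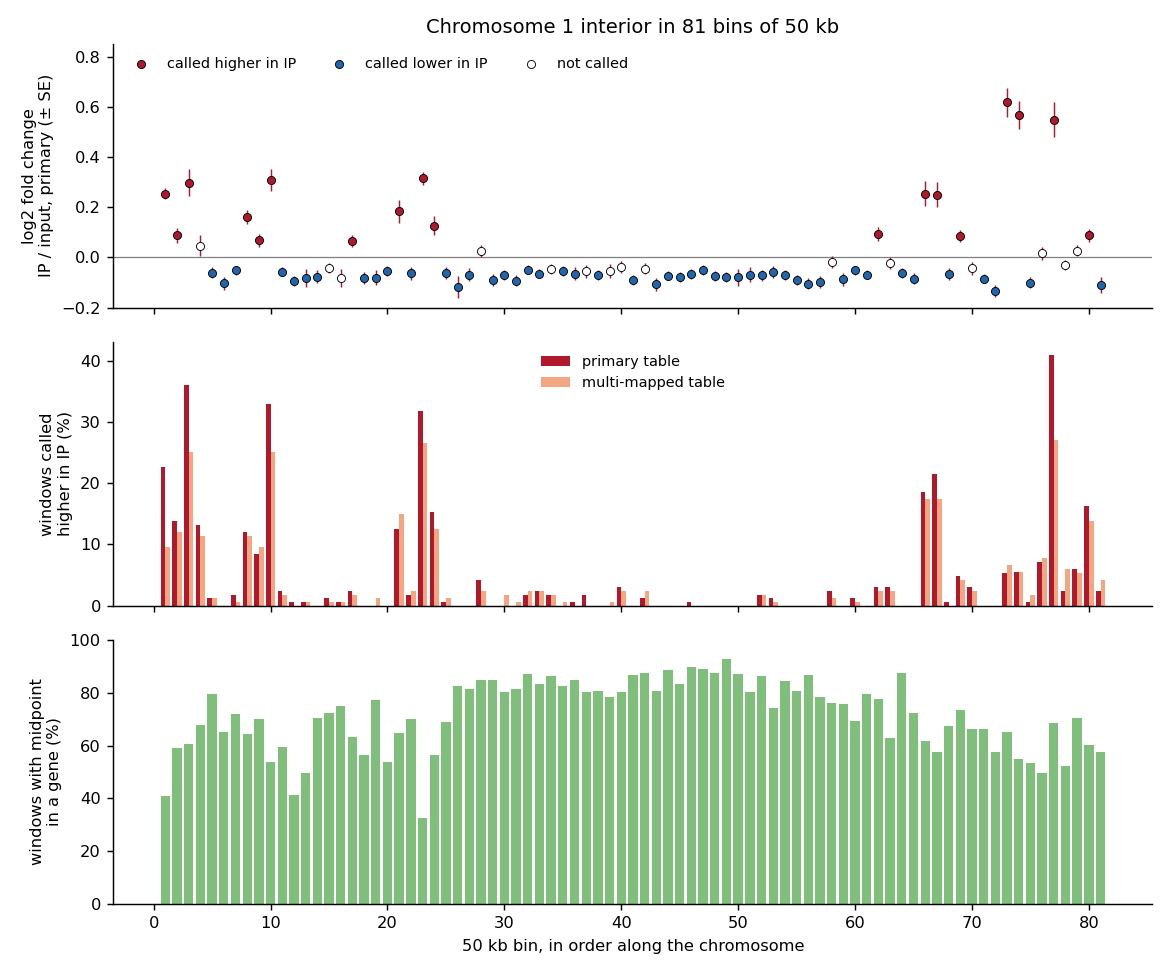
The 81 whole 50 kb bins of the chromosome 1 interior in order along the chromosome (x axis). The top panel shows the log2 fold change of IP over input with its SE (primary table; red called higher, blue called lower, white not called), the middle panel the share of windows called higher in both tables (%), and the bottom panel the share of windows in genes (%). Of the 18 higher bins 17 lie outside the stretch from 1250101 to 3300000, where 32 of the 41 bins are called lower and 8 are not called; the exception, 3100001 to 3150000, has a log2 fold change of 0.09.

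Neighbouring enriched windows were merged across at most 1 window into regions of at least 3 called windows, which inherit their calls and carry no test of their own. The interior held 67 regions with a median length of 1800 bp (900 to 15300 bp), 165300 bp in all or 4.02% of the interior, against 7.60% of the other interiors. They took in 524 of the 660 calls (79.4%). Of the 67 regions 40 lay in the first stretch, 23 in the last and 4 between. Their fold of summed CPM ran between 1.33 and 11.0 (median 1.55), and 17 exceeded 2. All 67 had a fold above 1 in the multi-mapped table, between 1.18 and 2.61 (median 1.33), and 57 held at least 1 window called there. Of the 67 regions 13 touched no gene of the RefSeq table.

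The strongest region by mean window log2 fold change lay at 3741601 to 3744000 over the gene models CC1G_00730 and CC1G_13777. The gene table gives no product names, so the genes are named by locus tag only. The region held 553 and 833 CPM in IP and 68.4 and 65.3 CPM in input, a 10.4-fold difference, and both IP columns stood far above both inputs. Of its 8 windows 7 were at least 4-fold higher. Its left edge was sharp: the window starting at 3741301 had a log2 fold change of -0.01 ± 0.11 and the next 2.08 ± 0.18. The one after, 3741901, had 3.93 ± 0.25 (edgeR adjusted p = 3.76e-07). At 3741901 the IP columns held 127 and 197 CPM and both inputs 10.6 CPM.

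A region at 3687301 to 3690000 over CC1G_00715 held 774 and 1052 CPM in IP and 84.4 and 81.7 CPM in input (11.0-fold). It contained the 3 windows with the highest log2 fold change of the interior. The window at 3687901 held 181 and 245 CPM in IP, from 18414 and 15489 counts, and 3.50 and 2.61 CPM in input, from 132 and 100 counts. Its log2 fold change of 6.12 ± 0.29 was the highest (69.5-fold, edgeR adjusted p = 1.05e-07). The window at 3688201 held 294 and 410 CPM in IP and 11.1 and 10.9 CPM in input (log2 5.00 ± 0.30), and that at 3687601 held 37.4 and 43.6 CPM in IP and 2.34 and 1.83 CPM in input (4.28 ± 0.17). Input was low in 2 of these 3 windows, 3687601 and 3687901, whereas IP was highest in the other, 3688201. At 3687601 the IP mean of 40.5 CPM lay above the median input of tested interior windows (7.25 CPM), and the input mean of 2.08 CPM lay below it. The part of each in the fold was not tested.

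These folds were far smaller in the multi-mapped table. The same 3 windows had log2 fold changes of 1.14 at 3687901, 1.70 at 3688201 and 0.71 at 3687601, and the input mean there was 18.9 CPM at 3687901 and 20.1 CPM at 3687601. The IP counts were 920 and 882 at 3687901 and 959 and 913 at 3688201. No window of that table held more than 1070 counts in IP 1_1 or 1035 in IP B_1, whereas interior windows of the primary table reached 30009 and 25961. The inputs of the multi-mapped table had similar maxima, 1071 in input 1_1 and 1053 in input B_1. Over the 39 windows at least 4-fold higher, the median log2 fold change was 2.99 by primary counts and 1.23 by multi-mapped counts, with 38 of the 39 called in both. Whether a limit on counts per window set these folds was not tested.

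Another 4 shorter or lower-count regions also ranked high. At 3138001 to 3138900, over CC1G_00522 and CC1G_00523, the IP columns held 125 and 195 CPM and the inputs 24.8 and 24.0 CPM (6.55-fold). This is 1 of the 4 regions of the middle stretch. At 853201 to 854100, with no gene model, IP held 110 and 165 CPM and input 24.3 and 22.8 CPM (5.83-fold). At 1169101 to 1170300, by CC1G_13616, IP held 75.9 and 103 CPM and input 16.0 and 15.9 CPM (5.60-fold). Its window at 1169701 held 30.9 and 44.0 CPM in IP and 2.02 and 2.37 CPM in input (log2 4.09 ± 0.20), and kept a log2 fold change of 1.87 in the multi-mapped table, the highest there among these 39 windows. The region at 73501 to 74400 rested on low counts, with 2.80 and 2.87 CPM in IP and 1.33 and 0.652 CPM in input (2.87-fold). Its mean log2 fold change moved between 1.15 and 2.24 when an input column was left out, and the multi-mapped table had 78.0 and 74.6 CPM of input there.

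Another 2 strong regions combined a sharp rise with a longer, lower shoulder. At 3864001 to 3866700, by CC1G_10124, the IP columns held 382 and 521 CPM and the inputs 98.5 and 99.2 CPM (4.57-fold). Its first 3 windows had log2 fold changes of 3.62, 4.04 and 3.35, and the remaining 6, of 0.45 to 1.03. At 3498001 to 3500700, over CC1G_00656 and CC1G_00657, IP held 193 and 283 CPM and input 63.9 and 63.5 CPM (3.74-fold). All 9 windows of this second region were called in both tables, with a multi-mapped fold of 2.05.

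**Figure D3:**
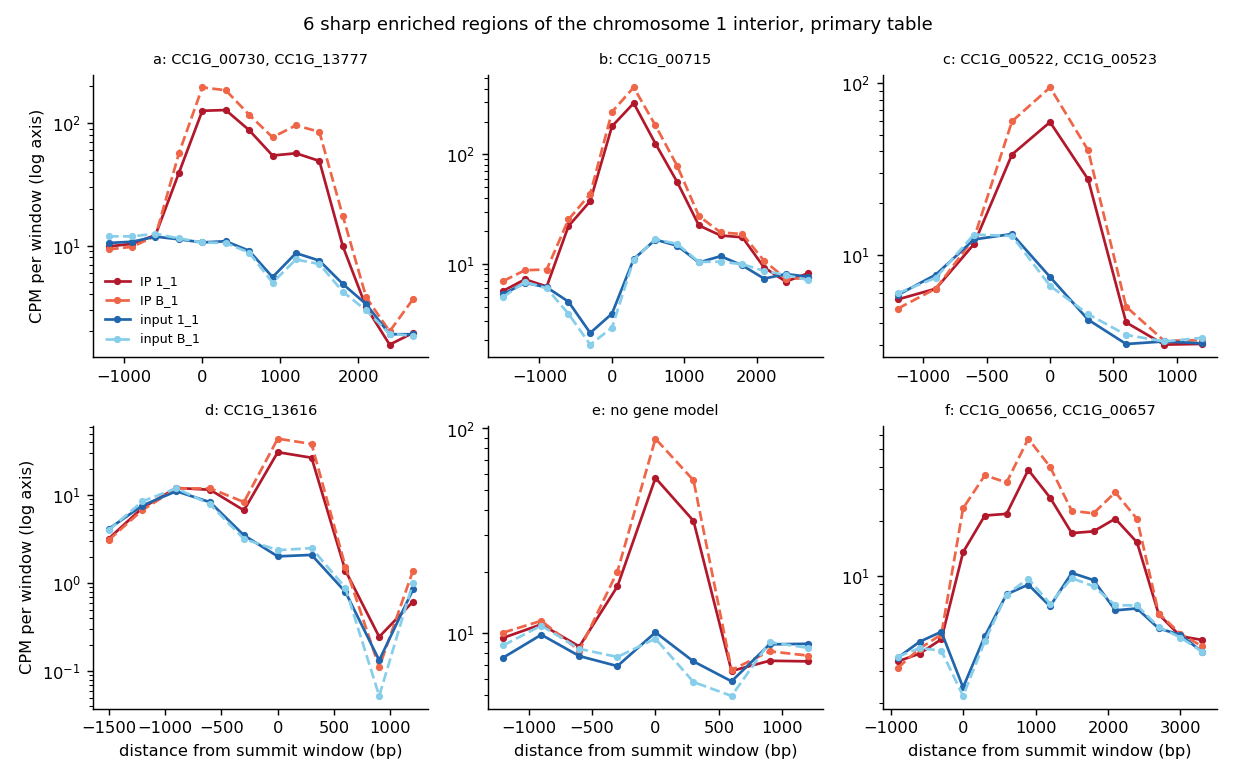
CPM per 300 bp window (y axis, log scale) against distance from the window with the highest log2 fold change (x axis, bp) for 6 strong regions: a, 3741601 to 3744000; b, 3687301 to 3690000; c, 3138001 to 3138900; d, 1169101 to 1170300; e, 853201 to 854100; f, 3498001 to 3500700. Red lines are the 2 IP columns and blue lines the 2 inputs. IP B_1 lies above IP 1_1 at each summit. Summits are not central in every region: that of f is the first of its 9 called windows, the lowest of which has a log2 fold change of 0.99.

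The longest regions were broader and less enriched. The longest, 3346201 to 3361500, held 989 and 1145 CPM in IP and 585 and 559 CPM in input (1.87-fold), and was not uniform along its 51 windows. One rise, at the windows 3347701 to 3348300, reached a log2 fold change of 2.69 ± 0.16, with 40.4 and 45.8 CPM in IP and 7.49 and 5.85 CPM in input. The other, at 3360001 over CC1G_00606, reached 2.96 ± 0.19, with 32.2 and 47.5 CPM in IP and 4.70 and 5.53 CPM in input. Between 3348601 and 3356400 the windows lay between 0.33 and 0.93, and just past the right edge, at 3361501, the value was -0.19 ± 0.15. By multi-mapped counts 36 of its windows were called and the fold was 1.39.

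The region at 1066801 to 1072200, which ends the run without calls before it, held 414 and 495 CPM in IP and 215 and 201 CPM in input (2.19-fold). All 18 of its windows were called in both tables. It covered CC1G_08646. The region at 3322801 to 3328200, over CC1G_13747, CC1G_00590 and CC1G_00591, was called at all 18 windows in both tables too, with 374 and 463 CPM in IP and 207 and 200 CPM in input (2.06-fold). The other 5 of the 8 longest lay at 126601 to 131700 (1.97-fold), 238801 to 245100 (1.82-fold), 423001 to 429000 (1.93-fold), 519301 to 524100 (1.52-fold) and 4033201 to 4041000 (1.77-fold). Their multi-mapped folds were 1.47, 1.46, 1.49, 1.33 and 1.41 in that order.

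Among regions without a gene model, several lay close together around 1.2 Mb. The longer of these, at 1184701 to 1188300, 1194301 to 1198200 and 1216801 to 1220700, were 1.49-, 1.54- and 1.49-fold higher. Their IP columns held 133 and 145 CPM, 186 and 195 CPM, and 139 and 125 CPM, and their inputs 98.5 and 88.6 CPM, 128 and 119 CPM, and 96.1 and 81.0 CPM. IP columns stood above inputs in each. Their multi-mapped folds were 1.34 to 1.35, with 6, 9 and 10 windows called there. The shorter regions at 1173901 to 1175700 and 1191901 to 1193100 were 1.55- and 1.46-fold higher. Both had 0 windows called in the multi-mapped table, with folds of 1.22 and 1.27. The regions of this cluster are outside the rule for named features.

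The IP columns also differed from each other. IP B_1 exceeded IP 1_1 in 535 of the 660 higher windows (81.1%), in all 39 windows at least 4-fold higher (median ratio 1.48) and in 21 of the 89 lower windows (23.6%). Over all tested interior windows it did so in 48.7%. The fold of the strong regions is therefore larger in IP B_1 than in IP 1_1. Windows called in either direction had more input, with a median of 9.09 CPM in higher and 8.76 CPM in lower windows. Over all tested interior windows it was 7.25 CPM. The part of input level in the calls was not tested.

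Lower windows had shallow differences. Their median log2 fold change was -0.46 (ratio 0.725) and the lowest -0.77 (0.587), so edgeR and DESeq2 each called 0 windows at least 2-fold lower (2 passed an unadjusted p under 0.05 in edgeR). The window with the lowest value, at 4076701, held 2.56 and 2.40 CPM in IP and 4.22 and 4.25 CPM in input. Of the 89 windows 73 (82.0%) had their midpoint in a gene, as did 71.8% of all tested interior windows. Adjacent lower windows formed 9 short regions, each touching 1 gene. At 4076401 to 4077300, in CC1G_11410, IP held 12.1 and 11.8 CPM and input 17.2 and 17.4 CPM, a ratio of 0.688. At 3617401 to 3618000, in CC1G_00698, IP held 11.8 and 12.3 CPM and input 17.3 and 19.3 CPM (0.658). At 411301 to 411900, in CC1G_02860, IP held 11.1 and 11.2 CPM and input 17.9 and 14.1 CPM (0.698), and at 1475401 to 1476000, in CC1G_13634, IP held 10.2 and 9.10 CPM and input 13.5 and 13.3 CPM (0.720). Both inputs stood above both IP columns in all 89, as in 26.1% of tested interior windows (background 24.4%). The count of lower windows depends on the scaling. Library totals gave a median over all windows of -0.16, against -0.01 with TMM, and 449 interior windows were higher and 843 lower, so that 34.8% of calls were higher, against 88.1% with TMM. Left-out columns moved these counts too, in fits where the group left whole alone sets the spread. Leaving out IP 1_1 gave 1301 higher and 1237 lower interior windows, and leaving out IP B_1 gave 1009 higher and 679 lower. Leaving out input 1_1 gave 379 higher, leaving out input B_1 gave 316, and either gave 7 lower.

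Both tables gave the same direction at every called window of the primary table. They may hold the same libraries, so their agreement is not independent support. All 660 higher windows had a positive log2 fold change in the multi-mapped table and all 89 lower windows a negative one. Called in both were 442 windows, 67.0% of the primary and 81.0% of the multi-mapped list, against 64.3% and 79.7% over all windows. Their median log2 fold change was 0.76 by primary counts and 0.48 by multi-mapped counts. The 218 windows called in the primary table alone were closer to 0, at 0.51 and 0.28. Lower calls overlapped less, with 36 shared (40.4% of the primary and 31.9% of the multi-mapped list, against 36.3% and 28.2% over all windows). In the authors' deposited table, at their adjusted p under 0.05, 260 interior windows were higher in IP in the primary table (background 3.26%) and 0 lower, and all 260 were called here. The authors' deposited multi-mapped table had 217 (background 3.21%), of which 182 were called here in the multi-mapped table.

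Enriched windows were more frequent outside genes. Of 3840 tested interior windows with their midpoint outside every gene, 317 were higher (8.26%, 95% Clopper-Pearson interval 7.40 to 9.17), against 343 of 9786 inside (3.51%, 3.15 to 3.89), a ratio of 2.36. The intervals cover counting error only, and windows that share reads are not independent. In the other interiors the shares were 13.3% outside and 6.32% inside (ratio 2.10). The share was larger at greater distance from the nearest gene, with 5.36% at 1 to 300 bp, 6.32% at 301 to 600 bp, 9.07% at 601 to 1000 bp, 12.4% at 1001 to 2000 bp and 20.5% at 2001 to 4000 bp. Beyond 4000 bp it was 37.6%, or 38 of 101 windows. The last 2 shares were 12.8% and 20.8% in the multi-mapped table.

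The 5 bins in which under 50% of windows lie in genes supplied 75 of the 101 windows beyond 4000 bp. Without these bins, an alternative chosen after the data were seen, the share beyond 4000 bp was 8 of 26 windows by primary counts (30.8%), and 0 of 26 by multi-mapped counts with edgeR. At 2001 to 4000 bp it was then 15.2%, and the ratio of outside to inside 2.08. Across the 81 bins the share of windows in genes and the share of windows higher had a Pearson r of -0.500 and a Spearman rho of -0.538, given as a description, since bins of 1 chromosome share libraries, depth and neighbours.

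**Figure D4:**
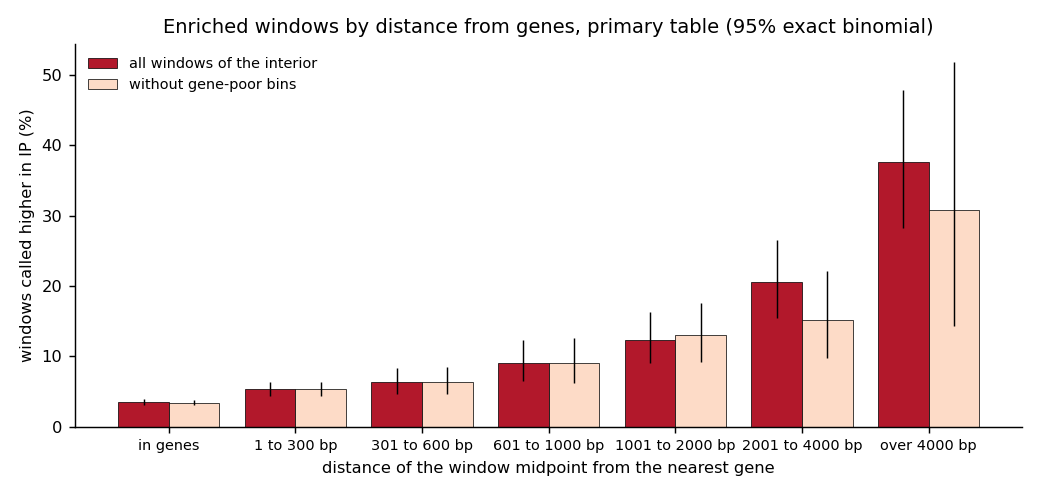
Share of tested interior windows called higher in IP (y axis, %, with exact 95% binomial intervals) by distance of the window midpoint from the nearest gene (x axis), in the primary table; dark bars use all interior windows and pale bars leave out the 5 bins with under 50% of windows in genes. The share is 3.51% in genes and 37.6% beyond 4000 bp with all windows.

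The interior holds 1613 genes of the RefSeq table (1596 protein-coding, 16 tRNA genes and 1 pseudogene), of which 1596 had a window midpoint and enough counts for a test. Of these, 108 were higher in IP (6.77%; background 11.2%), 19 of them at least 2-fold, and 9 were lower (0.564%; background 0.544%). The median log2 fold change of the higher genes was 0.51, and that of all tested interior genes -0.01. Of the 108 genes 46 lay in the first stretch, 49 in the last and 13 between, and 83 had a neighbouring gene that was called as well. For the count of 83 no background over all genes is given, and neighbouring genes may share reads. The multi-mapped table also called 108 genes higher (6.77%; background 11.1%), 98 of them the same genes.

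The highest gene was CC1G_13777, with 246 and 397 CPM in IP and 32.8 and 29.7 CPM in input over 3 windows (log2 3.36 ± 0.19 SE, edgeR adjusted p = 3.86e-06). CC1G_00715 held 882 and 1197 CPM in IP and 170 and 169 CPM in input (2.61 ± 0.13). CC1G_00730 held 512 and 732 CPM in IP and 111 and 116 CPM in input (2.46 ± 0.14). These genes lie in the 2 strongest regions above, and in the multi-mapped table their log2 fold changes were 1.66 for CC1G_13777, 0.89 for CC1G_00715 and 0.61 for CC1G_00730.

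CC1G_00606, at the right end of the longest region, held 156 and 229 CPM in IP and 36.3 and 37.7 CPM in input (2.38 ± 0.15). Its multi-mapped value was 1.22. CC1G_00657 held 252 and 354 CPM in IP and 93.4 and 93.4 CPM in input (1.70 ± 0.13), and CC1G_00522 held 201 and 286 CPM in IP and 82.8 and 81.1 CPM in input (1.57 ± 0.13). CC1G_08646 held 236 and 293 CPM in IP and 105 and 97.5 CPM in input (1.38 ± 0.10). The other protein-coding genes among the 12 highest were CC1G_08787 (1.32), CC1G_10115 (1.30), CC1G_13549 (1.21) and CC1G_00591 (1.19), with SEs of 0.10 to 0.12. All 12 were called higher in both tables, with both IP columns above both inputs.

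Transfer RNA genes encode the adaptor RNAs that bring amino acids to the ribosome and are shorter than a window, so a value over one also covers its flanks. Of the 16 tRNA genes 4 held a window midpoint, and 3 of these were higher: CC1G_20001 (log2 1.38 ± 0.14), CC1G_20002 (1.06) and CC1G_20009 (0.73). CC1G_20003 was not called (0.10, edgeR adjusted p = 0.780). CC1G_20001 held 23.6 and 28.5 CPM in IP and 9.06 and 11.0 CPM in input, and lies in a region at 190501 to 192900 that was 1.64-fold higher. By any overlap with a window all 16 could be tested, and 7 were higher (background 12% of all genes) and 0 lower, with a median log2 fold change of 0.22 against -0.01 over all genes. The highest of these was CC1G_20011 (2.76 ± 0.20), with 30.4 and 47.2 CPM in IP and 5.60 and 5.98 CPM in input over the windows it overlaps. The next was CC1G_20001 again, at 15.4 and 18.5 CPM in IP and 6.00 and 7.31 CPM in input. These come from the same counts as its 23.6 and 28.5 CPM above. They are lower only because any-overlap CPM are scaled to all windows and not to the counts within genes.

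Among the 9 lower genes, all with ratios above 0.75, the lowest were CC1G_13772 (log2 -0.38 ± 0.11, edgeR adjusted p = 0.0409), CC1G_11410 (-0.37 ± 0.08, adjusted p = 0.00740), CC1G_02746 (-0.33 ± 0.09, adjusted p = 0.0442) and CC1G_00698 (-0.30 ± 0.06, adjusted p = 0.00861). CC1G_11410 held 35.1 and 33.8 CPM in IP and 45.2 and 44.1 CPM in input, and CC1G_00698 held 185 and 175 CPM in IP and 230 and 214 CPM in input. None of these 4 was called lower in the multi-mapped table (edgeR adjusted p of 0.230, 0.101, 0.129 and 0.121 in that order) or without input 1_1. A single gene, CC1G_00546, was lower in both tables (log2 -0.30 by primary and -0.23 by multi-mapped counts). It is named after its values were seen.

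**Figure D5:**
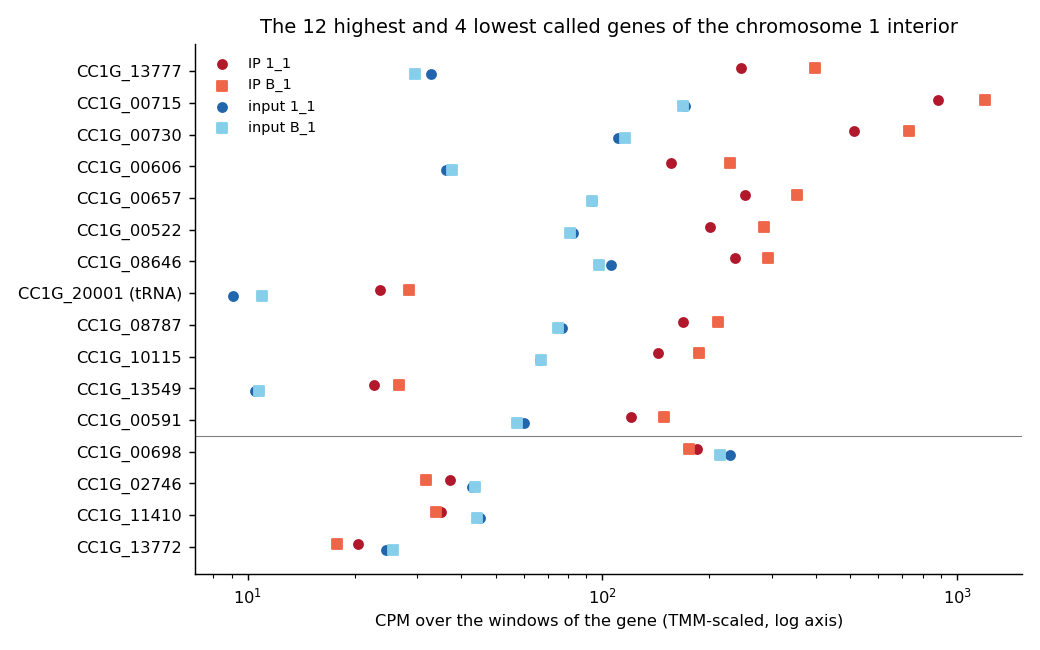
CPM summed over the windows of each gene (x axis, log scale) in the 2 IP columns (red) and the 2 inputs (blue) for the 12 highest called genes (above the line) and the 4 lowest called genes (below it), primary table. The IP points stand to the right of the input points in the 12 genes above the line and to the left in the 4 below, where the distance is far smaller.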

How the data were processed

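Sequencing counts from CMS-seq of oidia were analysed. Tools named in the submitters' processing notes are Bismark 0.6.4, Bowtie 0.12.7 and an edgeR with no version. How reads were extended or deduplicated, and on which build, is not stated there. Each of the 2 deposited tables gives counts per 300 bp window. The deposited log2 fold changes run input over IP and their sign was turned, and the deposited adjusted p-values were used to count the authors' calls. A further 8 columns of per-sample values were not used.

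Counts were fitted over all windows, 50 kb bins or genes with edgeR 4.0.16 (R 4.3.3): TMM, at least 10 counts, quasi-likelihood test, 2 columns per group. SEs come from the F statistic. Windows belong to a gene by their midpoint. The RefSeq gene table (assembly CC3) was checked against the primary table: input counts and gene cover on chromosome 1 correlated best with no shift (r = 0.130, against at most 0.0740 beyond 10 windows, up to 300 each way). The multi-mapped counts did not settle the match (r = 0.00488 at no shift, sizes up to 0.0953 beyond). Coordinates are those of the window tables. DNA sequences and lists that need product names were not analysed here. On simulated counts, with 1 dispersion for all windows and both groups, 44 of 100 windows changed 1.5-fold and 98 of 100 changed 2-fold were recovered. Changes were raised or lowered, and 8 unchanged windows were called. The IP columns here differ more than the inputs do, so recovery in these data may be unlike this. DESeq2 1.42.0, other scalings, thresholds and left-out columns were alternatives. Named features are the 8 longest and 8 strongest regions, the 6 highest windows, the 5 highest and 3 lowest bins, the 12 highest and 4 lowest genes, called tRNA genes and the 4 lowest regions. Members, lists and rules were chosen with earlier results of these data known.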

Additional observations from a re-analysis of the deposited data

How the results depend on the processing

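Enriched windows (660) numbered 658 with DESeq2's size factors and 579 with the DESeq2 Wald test, 408 at an adjusted p under 0.01, 243 in the multi-mapped table with its inputs as 1 sample (chosen after the data were seen), and 316 to 1301 when a column was left out. Lower windows (89) numbered 843 with library totals, 24 with the DESeq2 Wald test, 5 at 0.01, 8 with those inputs as 1 sample and 7 to 1237 with a column left out. Regions (67) numbered 43 at 0.01, 25 at 2-fold, 41 with a gap of 5 windows, 34 with those inputs as 1 sample and 38 to 87 with a column left out. The share of calls outside genes (48.0%) was 37.6% by any overlap, 42.7% without gene-poor bins and 43.1 to 50.6% with a column left out. Windows called in both tables (442) numbered 219 with those inputs as 1 sample, 36 at 2-fold and 281 to 489 with a column left out. Higher bins (18) numbered 9 with library totals, 11 in the multi-mapped table, 0 at 2-fold, 33 at 20 kb, 8 at 100 kb and 11 to 19 with a column left out. Higher genes (108) numbered 90 to 185 with a column left out and 19 at 2-fold. Lower genes (9) numbered 140 with library totals, 2 at 0.01, 0 at 2-fold and 0 to 137 with a column left out (0 without input 1_1, 137 without IP 1_1). At 2-fold 143 windows were higher and 0 lower. The difference in count share (-0.629 points) stayed between -0.709 and -0.548 with a column left out. No named feature changed direction in any alternative. That was likely beforehand, since named features were mostly picked as the extremes of these same data. Multi-mapped folds of the named regions were all weaker. The causes of these shifts were not tested.

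Columns share only a tag: with 2 pairs, the deviations of same-tagged columns correlated at 0.208 on the interior. A replicate block by tag gave 961 higher and 497 lower windows, 18 higher bins, 140 higher and 51 lower genes, and, applied to the multi-mapped counts, 521 higher windows and 8 higher bins, with the calls at 500001 to 550000 and 1150001 to 1200000 lost (edgeR adjusted p of 0.196 and 0.157).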
